A study of Mus musculus with 12 samples.

Results

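Mesenchymal cells and hepatocytes isolated from the livers of phenobarbital-treated mice were compared across all genes measured on Affymetrix 3′ expression arrays. The comparison used the 3 arrays labelled mesenchymal cells, phenobarbital, and the 3 arrays labelled hepatocytes, phenobarbital, which are 6 of the 12 samples of the study. They were chosen by these labels and not by any measured value. All mice were male C57BL/6N animals of 12 weeks. The treated mice took phenobarbital in the drinking water at 50 mg/kg per day for 14 days, and the other 6 samples are the same 2 populations of time-matched mice given tap water alone as the vehicle. The labels name no engineered allele in any group. The sources used here do not give how the populations were separated, whether animals were pooled or whether both populations came from the same livers. The p-values below therefore reflect only the spread among these arrays, which may be technical.

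Hepatocytes are the parenchymal cells of the liver: they make most plasma proteins, dispose of nitrogen as urea, release glucose in fasting, form bile and oxidise drugs. Around them lie the cells of the sinusoid, chiefly fenestrated endothelium, the resident macrophages called Kupffer cells, and stellate cells, which store vitamin A and can form matrix. Phenobarbital acts in hepatocytes through the nuclear receptor CAR, the product of Nr1i3, and the cytochrome P450 gene Cyp2b10 is its best known target in mouse liver. The comparison asks which genes set the populations apart in animals under this drug, and the vehicle arrays show which of those differences were also there without it.

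Expression values are log2 RMA levels, so a difference of 1 is 2-fold, and every difference below is mesenchymal cells minus hepatocytes. Over all probe sets, hepatocyte arrays correlated with each other at r of 0.992 to 0.993, mesenchymal arrays at 0.991 to 0.994, and a hepatocyte with a mesenchymal array at 0.738 to 0.780. Levels ran from 2.79 to 15.2, and the array medians lay at 7.20 to 7.21 in hepatocytes and 7.41 to 7.44 in mesenchymal cells. No pair of arrays held identical values. Among the mesenchymal arrays, array 1 had the highest level of every measured hepatocyte marker and array 2 the highest level of every measured neutrophil and Kupffer cell marker. Of 311 called genes named below, the difference moved by over 1.5-fold without array 1 in 19 and without array 2 in 3, and the sign turned in none. These shifts are of means, with no test, and they stand beside each gene. With 3 arrays a group, the number of arrays limits the precision.

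The fraction called mesenchymal carried above all the genes of Kupffer cells and of sinusoidal endothelium. All 14 measured Kupffer cell markers were higher in it, with a median difference of 7.68, and all 18 endothelial markers, with a median of 6.31. Across all 8757 genes tested, 42.9% were called higher and 40.1% lower and the median difference was 0.04, a call being an adjusted p under 0.05 in limma. Because each array measured RNA of many cells together, fewer cells of a type and less RNA per cell cannot be told apart in any of these results.

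Clec4f, the lectin by which mouse Kupffer cells are recognised, read 6.89, 6.64 and 7.17 on the hepatocyte arrays and 14.24, 14.33 and 14.30 on the mesenchymal arrays. The difference was 7.39 (SE 0.13, limma adjusted p = 4.5e-08), and the groups lay far apart. Cd5l, a secreted protein of tissue macrophages, differed by 8.12, and Csf1r, the receptor for the macrophage growth factor, by 7.13. Marco, a scavenger receptor, was the least even of the list: it read 9.96 and 10.27 on mesenchymal arrays 1 and 3 and far higher on array 2, against 5.86 to 6.30 in hepatocytes, with a mean difference of 5.05, or 4.09 without array 2. Among the endothelial genes, Stab2, which clears hyaluronan from blood, read 7.08, 6.81 and 7.31 in hepatocytes and 13.47, 13.33 and 13.56 in mesenchymal cells, a difference of 6.39 (SE 0.14, limma adjusted p = 5.7e-08). Oit3 differed by 7.45 and Tek, the angiopoietin receptor, by 7.31, and the narrowest difference of the list was 3.61 for Egfl7.

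Genes of the cells that the word mesenchymal usually names were present but fewer reached the filter, a level above the array's 40th percentile on at least 3 arrays. Of 16 measured stellate cell and fibroblast markers 9 were tested, 7 were called higher and none lower. Of those 7, 4 lay under the filter level on every hepatocyte array and were tested through the mesenchymal arrays alone, so they had to be higher, and the count is given as a description. The same holds for 8 of the 14 Kupffer cell markers and 7 of the 18 endothelial markers. Counts of higher genes in the lists below include such genes too and carry the same limit. So do counts of lower genes that lay under the level on every mesenchymal array. Reln read 5.89, 6.04 and 5.94 in hepatocytes and 10.03, 10.40 and 10.47 in mesenchymal cells, a difference of 4.34 (SE 0.13, limma adjusted p = 1.7e-07). Rgs5 differed by 5.69, the matrix proteoglycan Dcn by 5.22 and the collagen gene Col3a1 by 3.01. The filament gene Des, used to stain stellate cells, read 7.09 to 7.38 in hepatocytes and 7.40 to 7.54 in mesenchymal cells and was not called (difference 0.23, limma adjusted p = 0.072), though it was called higher without hepatocyte array 3 (0.30, limma adjusted p = 0.0344) and lower with the mean of its probe sets (-0.26, limma adjusted p = 0.0285) and with ribosomal protein centring (-0.34, limma adjusted p = 0.0149). Acta2, Col1a1, Pdgfrb and Lrat did not reach the filter. Their highest values on the mesenchymal arrays were 6.07, 5.0, 6.11 and 6.96. Without a test, the means of Acta2, Col1a1 and Pdgfrb differed by 0.126, -0.115 and -0.155. That of Lrat was higher in mesenchymal cells by 2.78. Genes of blood cells were also measured. Of 10 tested T and NK cell genes 8 were higher, led by Klrk1 (4.12) and Ccl5 (3.65), while Prf1 was lower by 0.57. Of the 8, 7 lay under the filter level on every hepatocyte array and so had to be higher. Prf1 lay under it on every mesenchymal array. All 7 tested dendritic cell and monocyte genes were higher, led by H2-Aa (8.37) and H2-Ab1 (7.69) of class II, which other antigen-presenting cells also express. Both tested B cell genes were higher, Cd79b by 2.09. Genes of bile duct cells and of mesothelium stayed under the filter, apart from Sox9, which was lower by 0.76. All 3 tested erythroid genes were lower, Alas2, the haem synthesis enzyme of red cell precursors, by 3.66, Klf1 by 2.10 and Ank1 by 0.63. Of 3 tested platelet genes Pf4 was higher by 2.39, and Gp1bb and Itga2b were lower by 0.58 and 0.48. The fraction is called by its label below, though by these markers it was not stellate cells or fibroblasts alone.

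**Figure D1:**
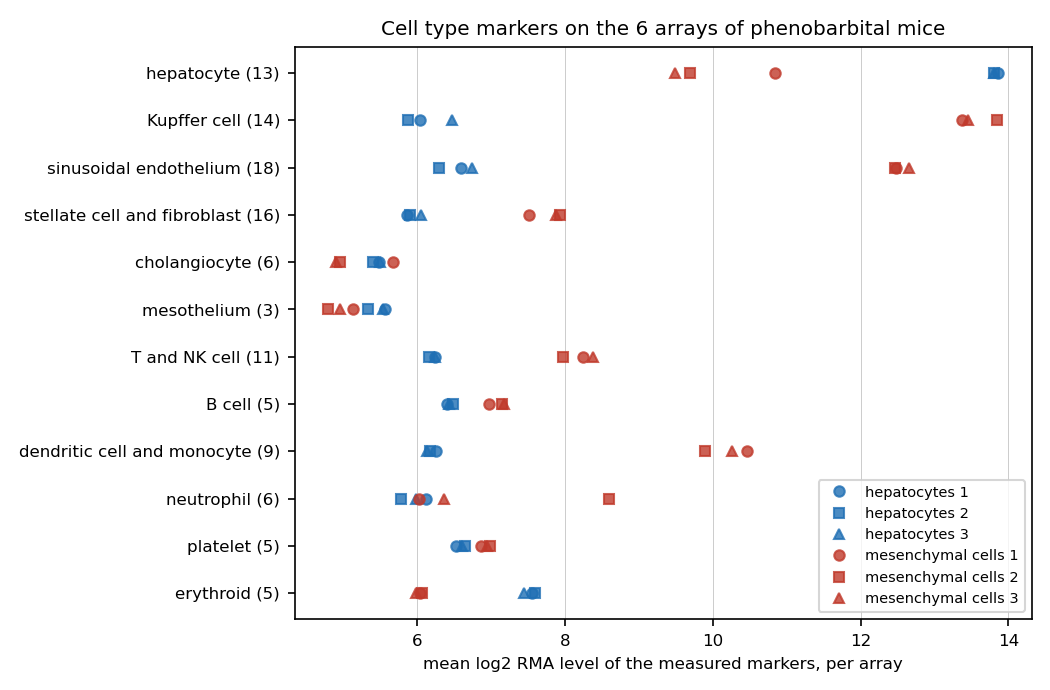
Mean log2 RMA level of the measured markers of 12 cell types (number of genes in brackets) on each of the 6 arrays, hepatocytes in blue and mesenchymal cells in red, with the symbol giving the array number. Kupffer cell markers average 13.4 to 13.8 and endothelial markers 12.5 to 12.7 on the mesenchymal arrays, against 5.87 to 6.47 and 6.29 to 6.73 on the hepatocyte arrays, mesenchymal array 1 is the highest of the red points for hepatocyte markers, and mesenchymal array 2 stands apart for neutrophil markers.

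Neutrophil genes rested on 1 array. S100a8, a calcium-binding protein that neutrophils make in bulk, read 5.81, 5.28 and 5.98 in hepatocytes and 7.01, 11.07 and 7.51 on mesenchymal arrays 1, 2 and 3. S100a9, its partner, read 7.31, 11.70 and 8.29 on the same mesenchymal arrays. Both were called, with differences of 2.84 (SE 0.97, limma adjusted p = 0.028) and 3.13 (SE 1.01, limma adjusted p = 0.021). Array 2 held the highest value of all 6 measured neutrophil genes. Without array 2 the means of S100a8 and S100a9 differed by 1.57 and 1.83, and without array 1 by 3.60 and 4.03. Without array 2, or without either other mesenchymal array, neither gene reached the filter in enough arrays to be tested. Leaving out any of the hepatocyte arrays also ended both calls (limma adjusted p from 0.0510 to 0.0847).

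Hepatocyte markers were all lower in mesenchymal cells, and they were not absent there. All 13 measured markers were called lower, with a median difference of -4.11. Asgr1, the hepatic lectin that removes desialylated glycoproteins, read 12.42, 12.38 and 12.40 in hepatocytes and 8.23, 6.88 and 6.68 in mesenchymal cells (difference -5.14, SE 0.37, limma adjusted p = 7.8e-06). Alb, which encodes serum albumin, read 15.02, 15.01 and 15.01 in hepatocytes and 14.69, 13.51 and 13.91 in mesenchymal cells. Its difference of -0.98 (SE 0.27, limma adjusted p = 0.010) was the narrowest of the list, and its hepatocyte level lay at the top of the scale of these arrays, where a bright probe can stop responding; how far this narrowed the difference was not tested.

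On a linear scale the median hepatocyte marker stood at 11.1% of its hepatocyte mean on mesenchymal array 1, 5.44% on array 2 and 4.04% on array 3. The same order ran through the genes at least 8-fold lower, but not through every list of hepatocyte genes. Acute phase and carrier genes were highest on array 2, at medians of 6.61%, 9.98% and 4.53% on arrays 1, 2 and 3. Transporter genes stood at 11.7%, 11.9% and 8.98%. Among called genes 2- to 8-fold lower, 48.3% had their highest mesenchymal value on array 1. Of the 572 genes that were at least 8-fold lower in mesenchymal cells, 87.1% had their highest mesenchymal value on array 1, against 31.7% of all genes tested, and their medians were 7.93%, 5.31% and 4.13% of the hepatocyte mean. Without array 1 the median difference of the marker list was -4.50 in place of -4.11. In the other direction, the median Kupffer cell marker in hepatocytes stood at 0.435% to 0.599% of its mesenchymal mean and the median endothelial marker at 1.03% to 1.43%. In hepatocytes 8 of 14 and 7 of 18 of these markers lay under the filter level on every array. There the signal may be background, so the true shares may be smaller. The part of hepatocyte RNA in each mesenchymal value was not tested, and for genes abundant in hepatocytes the level in mesenchymal cells cannot be told apart from it.

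**Figure D2:**
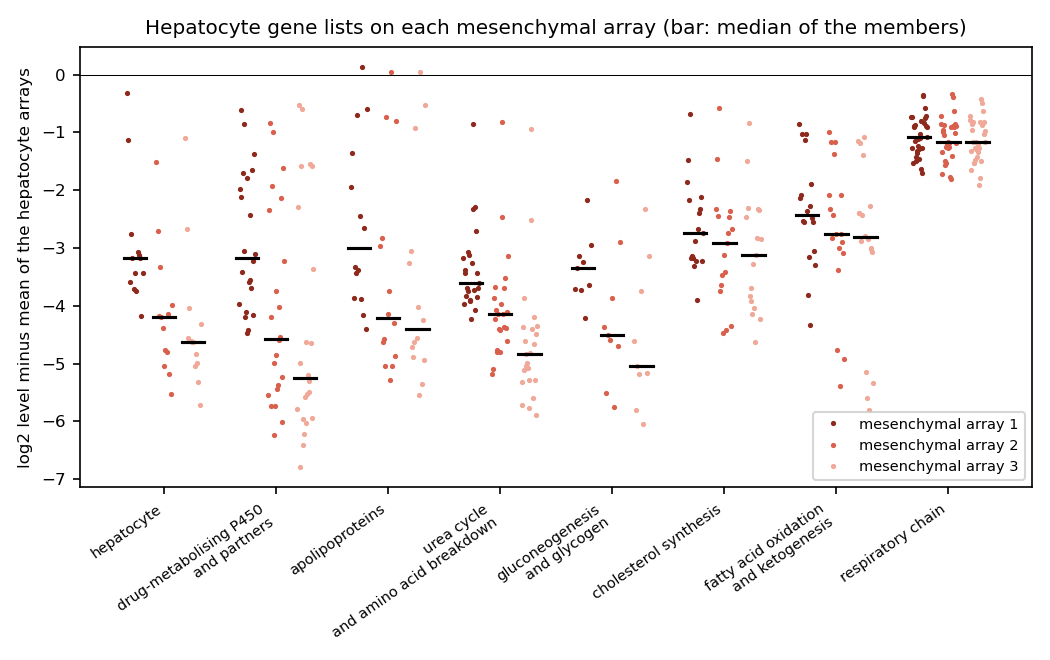
Log2 level of each member of 8 gene lists on each of the 3 mesenchymal arrays, relative to the mean of the 3 hepatocyte arrays; each point is a gene and the bar is the median of the list. Array 1 lies nearest to hepatocytes in the lists of hepatocyte function, with hepatocyte markers at 11.1% of the hepatocyte mean against 4.04% on array 3, while the respiratory chain genes stay between 44.3% and 47.1% on all 3 arrays.

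The populations differed in most genes. Of 8757 genes tested, 7264 (83%) were called, 3753 higher and 3511 lower in mesenchymal cells. At least 2-fold differences were called for 3803 (43.4%), 2121 higher (24.2%) and 1682 lower (19.2%), and at least 8-fold differences for 613 higher and 572 lower genes. Beyond 32-fold there were 209 higher and 93 lower genes. The 3 values of each population did not overlap in 7518 genes (85.9%). Among the 6650 genes above the 40th percentile on all 6 arrays, so measurable in both populations, 79.3% were called and 2366 differed at least 2-fold. In 1035 of the 3803 genes the lower population lay under that percentile on all its arrays, where the signal may be background. The balance of higher and lower genes depended on how the arrays were scaled to each other. Of the called genes 51.7% were higher as deposited, 43.3% after each array was centred on its own median, and 31.7% when arrays were centred on ribosomal protein genes, which moved the median difference of all genes from 0.04 to -0.19 and -0.53.

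The 10 widest higher genes were genes of macrophages, of antigen presentation and of other immune functions. C1qb, a chain of the first complement component, read 5.42, 5.14 and 6.18 in hepatocytes and 14.48, 14.62 and 14.59 in mesenchymal cells. Vsig4, the complement receptor of Kupffer cells, read 5.74, 5.17 and 6.24 against 14.33, 14.52 and 14.31. Their differences were 8.98 (SE 0.24, limma adjusted p = 1.2e-07) and 8.67 (SE 0.25, limma adjusted p = 1.4e-07). The others were H2-Aa, lysozyme Lyz1 (8.31), the signalling adaptor Tyrobp (8.30), the cathepsin gene Ctss (8.27), Cd5l, the haemoglobin scavenger Cd163 (8.09), Mndal (8.09) and Adgre4 (8.05).

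The 10 widest lower genes were enzymes and binding proteins of hepatocytes. Nox4, an oxidase that makes hydrogen peroxide, read 10.56, 10.35 and 10.59 in hepatocytes and 5.28, 4.31 and 4.0 in mesenchymal cells, a difference of -5.97 (SE 0.30, limma adjusted p = 1.4e-06). Hsd3b5, a steroid dehydrogenase of male mouse liver, read 11.04, 11.49 and 12.11 against 6.45, 4.77 and 5.56, a difference of -5.95. Amylase Amy1 followed at -5.82 and Il1rap, the accessory chain of the interleukin-1 receptor, at -5.72. The P450 genes Cyp4a12a, Cyp2c68 and Cyp2c54 differed by -5.70, -5.66 and -5.61, the fatty acid binding protein gene Fabp2 by -5.70, Nat8f2 by -5.59 and Baat, which conjugates bile acids to amino acids, by -5.56. Their order depended on mesenchymal array 1: without it Cyp4a12a came first at -6.69, followed by Amy1 at -6.49, Hsd3b5 at -6.38, Nox4 at -6.35, Il1rap and Cyp2c54 at -6.32 each, Fabp2 at -6.31 and Cyp2c68 at -6.27. The 10 widest genes each way were taken from called genes whose populations did not overlap, so their lack of overlap was set by the choice. It held in 85.9% of all genes tested.

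**Figure D3:**
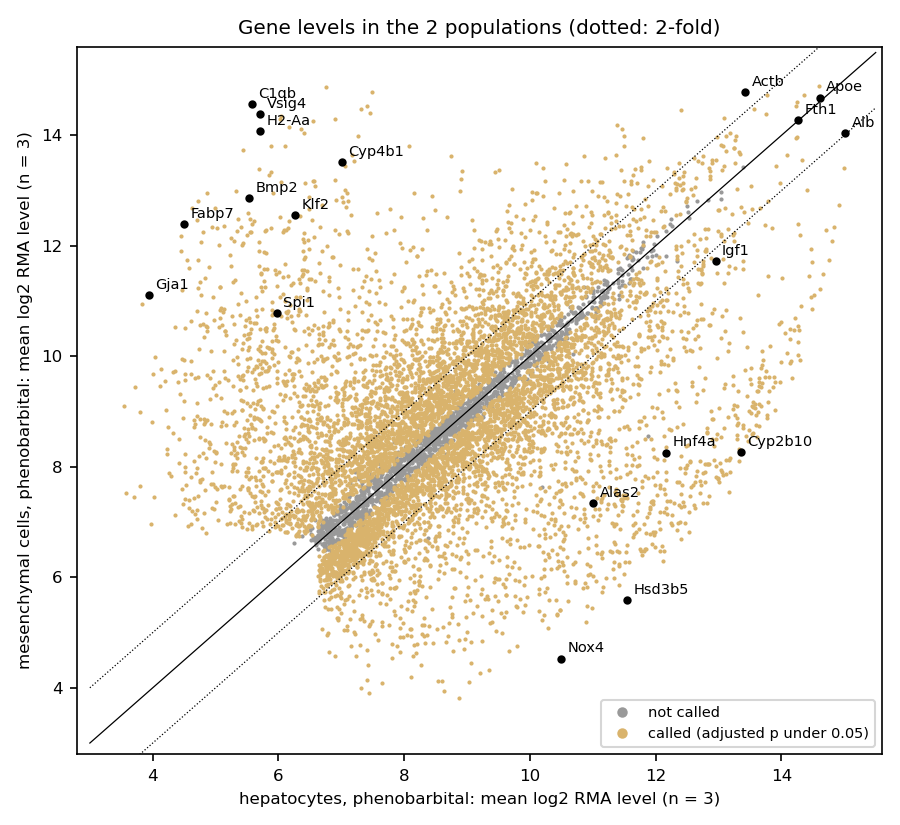
Mean log2 RMA level of each of 8757 tested genes in hepatocytes (horizontal axis, n = 3) and mesenchymal cells (vertical axis, n = 3) of phenobarbital mice; called genes are tan, genes not called are grey, and dotted lines mark a 2-fold difference. C1qb (8.98) and Vsig4 (8.67) lie far above the diagonal, Nox4 (-5.97) and Hsd3b5 (-5.95) far below it, and Apoe and Fth1 lie high on the diagonal.

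Enzymes of drug oxidation were lower in mesenchymal cells. All 19 tested members of a list of drug-metabolising P450 genes and their partners were called lower, each by at least 2-fold, with a median of -4.50. Cyp2b10, the gene phenobarbital induces through CAR, read 13.06, 14.15 and 12.87 in hepatocytes and 9.39, 7.82 and 7.57 in mesenchymal cells. The difference was -5.10 (SE 0.52, limma adjusted p = 5.7e-05), which is 34.3-fold, and the populations did not overlap. In mesenchymal cells Cyp2b10 stood at 2.92% of its hepatocyte mean. Beside it were set 92 genes at least 8-fold lower, with a hepatocyte level within 0.5 of that of Cyp2b10. These genes stood at 2.05% to 12.4%, with a median of 4.53%, and 10 of them were lower than Cyp2b10. The 8-fold cut sets the upper end of that range and leaves out genes of this level that were less than 8-fold lower. The values therefore do not rank Cyp2b10 among all genes of its level.

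Cyp2c55, another gene of the phenobarbital response, read 10.73, 11.97 and 10.80 in hepatocytes and 7.07, 5.44 and 4.96 in mesenchymal cells (difference -5.34, SE 0.57, limma adjusted p = 7.0e-05; -5.97 without mesenchymal array 1). Cyp2c29 differed by -3.77 and Cyp3a11, a broad-range oxidase of mouse liver, by -3.39. Both had their highest mesenchymal value on array 1, 11.58 and 12.82, against 8.72 and 9.99 on array 3, and without array 1 they differed by -4.59 and -4.19. Alas1, the rate-limiting enzyme of haem synthesis, read 11.75, 12.22 and 12.36 against 9.01, 8.89 and 8.74, a difference of -3.23. Without array 1 the median of the list over all measured members moved from -4.31 to -4.93.

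Counted over every gene named Cyp, 62 were measured, 43 were tested, 40 were lower and 3 were higher, with a median of -4.17. The 3 exceptions were picked out after their values were seen. Cyp4b1, a P450 of lung and other extrahepatic tissue, read 7.18, 6.72 and 7.14 in hepatocytes and 13.59, 13.28 and 13.70 in mesenchymal cells, a difference of 6.51 (SE 0.16, limma adjusted p = 8.9e-08). Cyp4f18, which inactivates leukotriene B4 in leukocytes, was higher by 2.20 and Cyp4f16 by 1.84.

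Conjugation enzymes were lower in 27 of 28 tested genes, with a median of -3.49. Gsta2, Ugt2b34, Sult1d1 and Ugt2b1, which attach glutathione, glucuronic acid or sulphate, differed by -5.33, -5.28, -5.22 and -5.21, and without mesenchymal array 1 Gsta2 differed by -6.13, Ugt2b34 by -5.92 and Ugt2b1 by -5.83. The glutathione transferase Gstm2 was not called: it read 9.15, 10.49 and 8.94 in hepatocytes and 9.91, 9.62 and 9.84 in mesenchymal cells, and without hepatocyte array 2, the highest, it was called at 0.75 (limma adjusted p = 0.00196). Of 18 tested transporter genes 13 were lower, among them the bile acid and anion importers Slco1b2 (-5.29), Slc10a1 (-5.15) and Slco1a1 (-5.06) and the bile salt export pump Abcb11 (-4.65). The 4 that were higher were the cholesterol exporters Abcg1 (5.39) and Abca1 (0.76), the glutathione-conjugate exporter Abcc1 (3.72) and the prostaglandin carrier Slco2a1 (0.90). Abcc3, which exports conjugates back to blood, was not called (0.40, limma adjusted p = 0.11). It was called without hepatocyte array 2 (0.57, limma adjusted p = 0.0401) and with the array number as a block (0.40, limma adjusted p = 0.0454), and its sign turned with ribosomal protein centring (-0.18, not called).

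Of 13 tested hepatocyte transcription factors 12 were lower, with a median of -3.27. Hnf4a, the nuclear receptor at the centre of the hepatocyte programme, read 12.28, 12.14 and 12.09 in hepatocytes and 8.74, 8.18 and 7.86 in mesenchymal cells (difference -3.91, SE 0.21, limma adjusted p = 1.7e-06). Foxa3 differed by -4.82, Mlxipl, a glucose-sensing factor, by -3.74, and Creb3l3 by -3.69. Hhex, also a factor of endothelium, was the member not called, at 9.98, 9.94 and 10.57 against 10.18, 10.29 and 10.02. It was called lower with ribosomal protein centring (-0.58, limma adjusted p = 0.00835).

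Of 28 tested genes in a list of nuclear receptors 12 were lower, 12 higher and 4 not called. The shares of 42.9% each lie near those of all genes (40.1% lower, 42.9% higher). Among the 12 higher are the aryl hydrocarbon receptor and its partner, which are not nuclear receptors, so the shares are those of the list and not of the family. The lower ones were led by Ppara (-4.69), the regulator of fatty acid oxidation, Hnf4a, the bile acid receptor Nr1h4 (-3.87), Nr1i3 (-3.71), Nr0b2 (-3.52) and Nr1i2 (-3.51). Nr1i3, which encodes CAR, read 8.43, 9.42 and 9.12 in hepatocytes and 5.41, 5.40 and 5.02 in mesenchymal cells, so its mesenchymal values all lay under the 40th percentile of the arrays. Nr1i2, which encodes the related drug sensor PXR, read 9.27, 9.49 and 9.54 against 5.83, 6.17 and 5.77. The higher ones were led by Nr2f1 (2.67), Nr2f2 (2.10), a factor of venous endothelium, Rarb (2.06), the liver X receptor gene Nr1h3 (1.34), Thra (1.24) and Rarg (1.20). Rxra, the shared partner of CAR, PXR and PPARα, read 10.63, 10.64 and 10.45 against 10.47, 10.79 and 10.44 and was not called (difference -0.01, limma adjusted p = 0.93). With the mean of its probe sets it was called lower (-0.41, limma adjusted p = 0.00612), as with ribosomal protein centring (-0.59, limma adjusted p = 0.00451).

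Of 14 tested macrophage factors 12 were higher. Spi1, which encodes PU.1, read 5.94, 5.93 and 6.03 in hepatocytes and 10.60, 11.06 and 10.69 in mesenchymal cells (difference 4.82, SE 0.13, limma adjusted p = 1.2e-07). Tfec differed by 6.18, Zeb2 by 5.96, Id3 by 4.16 and Irf8 by 4.07. Cebpb, which hepatocytes also use, was lower by 0.40, a call lost without hepatocyte array 2 or 3 or mesenchymal array 1 or 3 (limma adjusted p from 0.0501 to 0.0797). Runx1 was not called (-0.26), but was without hepatocyte array 2 or mesenchymal array 2 (-0.35 each, limma adjusted p = 0.0437 and 0.0401) and with both centrings, whereas with the mean of its probe sets it was called higher (0.33, limma adjusted p = 0.019). Of 16 endothelial factors 14 were higher, among them Ets1 (6.93), the flow-responsive Klf2 (6.29), Sox18 (5.20), Fli1 (4.89) and Meis2 (4.15), while Hhex was again not called. Of the 14, 9 lay under the filter level on every hepatocyte array and so had to be higher.

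HNF4, the product of Hnf4a, binds sites such as CAAAGTCCA, and PU.1 binds sites such as GAGGAAGT. Both were searched on both strands in the 250 bases before each RefSeq gene start on build GRCm38.p6; the letters of the motifs do not overlap. CAAAGTCCA stood in 0.384% of all 32851 windows and in 0.49% of the 9181 windows of tested genes. It stood in 1.69% (10) of the 590 windows of genes at least 8-fold lower in mesenchymal cells. In the 614 windows of genes at least 8-fold higher the share was 0.814% (5). GAGGAAGT stood in 2.44% of all windows, 2.27% of those of tested genes, 1.53% (9) of the lower set and 3.26% (20) of the higher. A gene can have several windows. None of 13 hepatocyte marker windows held CAAAGTCCA. Of 13 Kupffer cell and 13 endothelial marker windows, 1 each held GAGGAAGT. These shares are descriptions; a match is not a proven site. The 4 windows shown are of genes chosen because they hold a match, 2 lower and 2 higher. Cyp2c70, which makes the muricholic acids of mice, lies at chr19:40187287-40187536 on the minus strand and Cyp8b1, which makes cholic acid, at chr9:121916306-121916555 on the minus strand; the capitals mark CAAAGTCCA at 64 to 56 and 67 to 59 bases before the start. C1qc lies at chr4:136892915-136893164 on the minus strand and Fcgr4, an activating Fc receptor, at chr1:171018676-171018925 on the plus strand; the capitals mark GAGGAAGT read from the opposite strand, at 195 to 188 and 24 to 17 bases before the start. Their differences were -4.97, -4.64, 7.76 and 6.44.
Cyp2c70: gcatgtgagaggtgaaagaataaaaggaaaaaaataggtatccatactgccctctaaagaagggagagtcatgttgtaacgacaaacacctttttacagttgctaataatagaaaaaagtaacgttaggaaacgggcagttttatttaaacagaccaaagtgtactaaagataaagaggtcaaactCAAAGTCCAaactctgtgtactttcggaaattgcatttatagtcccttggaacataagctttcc
Cyp8b1: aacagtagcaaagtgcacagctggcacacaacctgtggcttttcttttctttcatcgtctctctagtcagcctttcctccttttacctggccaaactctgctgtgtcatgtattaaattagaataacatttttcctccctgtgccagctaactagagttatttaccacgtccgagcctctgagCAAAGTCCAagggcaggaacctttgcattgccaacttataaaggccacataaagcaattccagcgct
C1qc: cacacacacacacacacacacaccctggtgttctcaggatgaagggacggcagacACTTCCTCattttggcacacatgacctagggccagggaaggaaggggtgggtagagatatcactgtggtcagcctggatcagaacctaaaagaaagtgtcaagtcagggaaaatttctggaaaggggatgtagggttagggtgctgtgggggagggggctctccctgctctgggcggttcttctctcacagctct
Fcgr4: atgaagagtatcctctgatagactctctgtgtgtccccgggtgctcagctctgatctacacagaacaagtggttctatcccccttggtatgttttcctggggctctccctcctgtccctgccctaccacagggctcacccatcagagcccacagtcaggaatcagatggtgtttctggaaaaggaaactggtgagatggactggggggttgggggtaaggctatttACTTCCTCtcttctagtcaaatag

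Of 21 tested complement genes 15 were lower in mesenchymal cells and 6 higher. The lower ones included the lectins Mbl2 (-5.14) and Mbl1 (-4.85), the regulator C4bp (-5.06) and the membrane attack genes C8g (-5.0), C8b (-4.72) and C9 (-4.57). The higher ones were the C1q chains C1qb, C1qc and C1qa (7.70), properdin Cfp (5.87), Masp1 (3.65) and C6 (1.44). Properdin, the positive regulator of the alternative pathway, read 7.18, 6.93 and 7.16 in hepatocytes and 12.87, 13.15 and 12.87 in mesenchymal cells. C6, a membrane attack component, read 10.95, 10.88 and 11.06 against 12.10, 12.86 and 12.26. All 8 tested complement receptor genes were higher, led by Vsig4, the integrin chain Itgb2 (7.24) and Cd55 (6.80). Of the 8, 5 lay under the filter level on every hepatocyte array and so had to be higher.

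Masp1 depended on the probe set. The gene makes several splice products of a lectin pathway protease. The probe set that stood for the gene read 8.03, 7.83 and 7.66 in hepatocytes and 11.25, 11.54 and 11.68 in mesenchymal cells, and 2 further sets differed by 1.86 and 3.72 in the same direction. Another set read 11.50, 11.43 and 11.42 in hepatocytes and 6.99, 6.02 and 5.72 in mesenchymal cells, a difference of -5.21. By sign alone, 3846 (92.0%) of 4180 further probe sets of called genes that reached the filter went the way of the set used. Opposition as wide as that of Masp1 was rarer. Of 3292 genes with at least 2 probe sets reaching the filter, 4 (0.122%) had sets differing at least 2-fold in opposite directions without overlap. The other 3 were Lifr, whose sets differed by -1.80 and 1.82, Ahnak (-1.89 and 4.29) and Sox4 (-1.17 and 1.58 to 5.32). Lifr, the receptor for leukaemia inhibitory factor, read 10.97, 11.82 and 11.77 in hepatocytes on the first set and 9.43, 9.78 and 9.95 in mesenchymal cells, and on the second 10.09, 10.68 and 10.88 against 12.18, 12.17 and 12.76. These genes were picked out by this pattern, and which transcript each set reads was not tested.

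Of 24 tested coagulation and fibrinolysis genes 18 were lower, led by F13b (-5.48), F9 (-5.26), F11 (-5.12), F12 (-5.05), F5 (-5.05) and Klkb1 (-4.91). The 6 that were higher were F8 (5.92), Thbd (4.61), Tfpi (4.33), Procr (2.90), Vwf (2.57) and Pros1 (2.27). F8, the antihaemophilic factor, read 6.82, 5.99 and 6.82 in hepatocytes and 12.51, 12.26 and 12.61 in mesenchymal cells (difference 5.92, SE 0.23, limma adjusted p = 4.6e-07). F9, its partner in the tenase complex, read 12.20, 12.13 and 12.39 against 7.58, 6.98 and 6.38 (difference -5.26, SE 0.27, limma adjusted p = 1.5e-06). Neither gene overlapped between the populations.

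Acute phase and carrier proteins were lower in 15 of 18 tested genes, led by Crp (-5.20), Serpina6 (-5.12) and Saa4 (-4.86). The 3 not called were acute phase genes that differed among arrays of the same population. Saa1 read 10.88, 10.90 and 13.85 in hepatocytes and 5.98, 11.50 and 8.22 in mesenchymal cells (difference -3.31, SE 1.41, limma adjusted p = 0.060). Saa2 and Lcn2 had the same order, highest on hepatocyte array 3 and on mesenchymal array 2, the array that was also highest in neutrophil genes. Without mesenchymal array 2 all 3 were called lower, Saa1 by 4.78 (limma adjusted p = 0.00698), Saa2 by 3.72 (limma adjusted p = 0.0165) and Lcn2 by 2.72 (limma adjusted p = 0.0417). Saa1 and Saa2 were also called lower with ribosomal protein centring (limma adjusted p = 0.0274 and 0.0347) and with all 12 arrays in the fit (limma adjusted p = 0.0243 and 0.0372). Array median centring gave a call for Saa1 too (limma adjusted p = 0.0447). Apolipoproteins were lower in 12 of 13 tested genes, by 4.91 for Apoc4, 4.37 for Apob and 2.73 for Apoa1. Apoe was the exception, at 14.65, 14.67 and 14.51 in hepatocytes and 14.74, 14.65 and 14.66 in mesenchymal cells. Its difference of 0.07 was not called (limma adjusted p = 0.38). It turned to -0.51 with ribosomal centring, where Apoe was called lower (limma adjusted p = 0.00112), and to -0.16 with median centring, not called. Both levels lay near the top of the scale of these arrays, as for Alb. Whether this narrowed the difference was not tested.

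Pathways of hepatocyte metabolism were lower throughout. All 23 tested genes of the urea cycle and amino acid breakdown were lower (median -4.13), all 9 of gluconeogenesis and glycogen (median -4.23), all 12 of bile acid synthesis (median -4.22), all 17 of cholesterol synthesis (median -2.90) and all 18 of fatty acid oxidation and ketogenesis (median -2.67). Otc, the urea cycle enzyme that forms citrulline, read 13.51, 13.46 and 13.61 in hepatocytes and 9.55, 8.42 and 7.81 in mesenchymal cells. G6pc, the last step of glucose release, differed by -4.88 (-5.65 without mesenchymal array 1) and Pck1, which commits carbon to glucose, by -4.23. Cyp7a1, the rate-limiting enzyme of bile acid synthesis, was uneven in hepatocytes, at 7.72, 8.66 and 10.64, against 6.20, 5.69 and 5.57 in mesenchymal cells. Sqle, which oxidises squalene, differed by -3.98 and the ketogenic dehydrogenase Bdh1 by -5.18. The narrowest members were genes that many cells need: Glud1 (-0.87), Cpt1a (-0.99) and Mvd (-0.70).

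The respiratory chain was lower by less. All 31 tested genes were called lower, 17 of them at least 2-fold, with a median of -1.14. Uqcrfs1, the iron-sulphur subunit of complex III, read 12.71, 12.69 and 12.76 in hepatocytes and 11.09, 10.94 and 10.81 in mesenchymal cells, and Cox4i1, a subunit of cytochrome oxidase, was lower by 0.37, the narrowest of the list. The median member stood at 47.1%, 44.3% and 44.6% of the hepatocyte mean on mesenchymal arrays 1, 2 and 3. Those shares are several times those of the hepatocyte markers.

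Of 24 tested iron and haem genes 11 were higher (45.8%) and 10 lower (41.7%), shares near those of all genes. Hamp, which encodes the iron hormone hepcidin, read 14.02, 13.96 and 13.97 in hepatocytes and 10.54, 9.47 and 8.58 in mesenchymal cells (difference -4.45, SE 0.43, limma adjusted p = 3.9e-05). Bmp2 and Bmp6, the signals that set hepcidin, were higher: Bmp2 read 5.60, 5.40 and 5.60 in hepatocytes and 12.80, 12.83 and 12.98 in mesenchymal cells, a difference of 7.34 (SE 0.09, limma adjusted p = 2.6e-08), and Bmp6 differed by 4.27. Tfr2, the transferrin sensor, was lower by 4.0 and the haem synthesis genes Cpox, Alad, Urod, Fech and Uros by 2.25 to 1.20. Among the higher members were Cd163, the phagosomal transporter Slc11a1 (6.05), haem oxygenase Hmox1 (4.31) and ferroportin Slc40a1 (2.66). Ferroportin, the iron exporter that hepcidin degrades, read 11.60, 11.16 and 11.62 in hepatocytes and 14.13, 14.19 and 14.04 in mesenchymal cells. Fth1, the heavy chain of ferritin, was not called (0.01, limma adjusted p = 0.92). It was called lower with array median centring (-0.22, limma adjusted p = 0.0178) and ribosomal protein centring (-0.57, limma adjusted p = 0.000554). Of 10 tested genes in a retinoid list 8 were lower, led by Rarres2 (-4.39) and Aldh1a1 (-4.12, or -4.71 without mesenchymal array 1). Rarb was the single higher one. Rarres2 is named for its response to a retinoid and is not an enzyme or carrier of retinoids.

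Lysosome genes were higher in 23 of 24 tested genes, with a median of 1.93, and the exception was the cholesterol transporter Npc1 (-1.27). Ctss read 5.36, 6.08 and 6.62 in hepatocytes and 14.17, 14.40 and 14.30 in mesenchymal cells, and the asparaginyl endopeptidase Lgmn differed by 5.72. Both populations had the general lysosomal proteases: Ctsb read 12.51, 12.46 and 12.25 against 14.39, 14.58 and 14.42, a difference of 2.06. Scavenger and endocytic receptors were higher in 20 of 22 tested genes (median 5.02), and 10 of the 20 lay under the filter level on every hepatocyte array. Cd163, the mannose receptor Mrc1 (7.94), Axl (7.39), Fcgr1 (7.02), Fcgr3 (6.94) and Stab1 (6.49) led them, and Asgr1 and Asgr2 (-4.39), the hepatocyte's own receptor for galactose-ended glycoproteins, were the 2 lower ones.

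All 21 tested antigen presentation genes were higher, 8 of which lay under the filter level on every hepatocyte array and so had to be. The class II gene H2-Aa read 5.67, 5.37 and 6.09 in hepatocytes and 14.41, 13.69 and 14.13 in mesenchymal cells, and the class II genes H2-Eb1 and Cd74 differed by 6.29 and 6.33. Class I genes, which all nucleated cells display, differed less, H2-D1 by 1.23 and B2m by 0.29. B2m read 14.23 on all 3 hepatocyte arrays and 14.55, 14.47 and 14.54 on the mesenchymal arrays, and its sign turned with ribosomal protein centring (-0.28). Innate sensing genes were higher in 15 of 18, led by Ly86 (7.08), Casp1 (5.22), Cd14 (5.09) and the toll-like receptor genes Tlr4 and Tlr7 (4.19 each). The 3 lower ones were Tlr5, the flagellin receptor (-1.01), Tirap (-0.62) and Lbp (-0.41), the plasma protein that carries endotoxin to Cd14, whose call was lost with all 12 arrays in the fit (limma adjusted p = 0.0738).

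NADPH oxidase genes lay on both sides. Of 6 tested genes, 5 of the phagocyte oxidase were higher, with Cybb at 4.36, 4.21 and 5.05 in hepatocytes and 11.54, 12.11 and 11.58 in mesenchymal cells (difference 7.20), Cyba at 5.66, Rac2 at 4.78, Ncf1 at 3.91 and Ncf4 at 3.84. Nox4, which needs none of the cytosolic subunits, was the lower one, and its mesenchymal values all lay under the 40th percentile of the arrays. Of 17 tested chemokine and receptor genes 13 were higher, led by Ccl6 (6.93), Cxcr6 (4.10), Cxcl16 (3.92), Ccl24 (3.70) and Ccl5, and 4 were lower, namely Ccl9 (-3.42), Cxcl1 (-2.30), Cxcl12 (-0.57) and Cx3cl1 (-0.54). The call for Cxcl12 was lost with all 12 arrays in the fit (limma adjusted p = 0.0565).

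Matrix genes were higher in 19 of 24 tested genes and lower in 4, of 36 measured. Those with the widest differences were the metalloproteinase inhibitor Timp3 (5.95), the basement membrane genes Nid1 (5.77) and Col4a1 (5.30), the proteoglycan genes Bgn (5.68) and Dcn, and Sparc (5.63). Col4a1 read 6.18, 5.94 and 6.35 in hepatocytes and 11.46, 11.43 and 11.48 in mesenchymal cells. The 4 lower ones were the endostatin precursor Col18a1 (-3.88), the plasma matrix proteins Vtn (-3.64) and Fn1 (-3.37), and Col6a2 (-0.43). Fn1, fibronectin, read 12.83, 12.77 and 12.65 in hepatocytes and 9.69, 9.29 and 9.16 in mesenchymal cells.

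Of 29 tested adhesion and cytoskeleton genes 19 were higher (65.5%) and 10 lower (34.5%), against 42.9% and 40.1% of all genes tested. The 10 lower ones were junction and filament genes of hepatocytes. They were the connexins Gjb2 (-5.19) and Gjb1 (-5.04) and the claudins Cldn1 (-4.42), Cldn2 (-4.20) and Cldn3 (-3.19). With them went the keratins Krt18 (-3.82) and Krt8 (-3.68), occludin Ocln (-3.46) and the cadherins Cdh1 (-3.20) and Cdh2 (-3.18). Higher were the actin-sequestering thymosin Tmsb4x (7.29), the leukocyte integrin chain Itgb2, Gja1 (7.17), Pecam1 (6.72), Cdh5 (6.71) and Tmsb10 (6.63). Tmsb4x read 7.61, 7.0 and 7.87 in hepatocytes and 14.80, 14.78 and 14.78 in mesenchymal cells. Actb, often taken as a steady reference, was higher by 1.35 (SE 0.09, limma adjusted p = 6.8e-06), at 13.47, 13.57 and 13.25 against 14.82, 14.74 and 14.77.

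Of 19 tested genes of ligands known from sinusoidal cells 15 were higher, and 10 of these lay under the filter level on every hepatocyte array. Besides Bmp2 and Bmp6 the higher ones included the matricellular gene Ccn2 (5.16), Wnt2 (4.66), the Notch ligand gene Dll4 (3.45) and Tgfb1 (3.46). Wnt2, a Wnt ligand of central vein and sinusoid endothelium, read 5.78, 5.89 and 6.12 in hepatocytes and 10.28, 10.16 and 11.32 in mesenchymal cells. Igf1 (-1.23), Pdgfa (-0.90) and Jag2 (-0.33) were lower. Ligands known from hepatocytes were lower in 12 of 15 tested genes, among them Mst1 (-4.47), which encodes macrophage-stimulating protein, Inhbe (-3.99), Lect2 (-3.93), Inhbc (-3.69), and the vascular factors Angptl4 (-3.63) and Vegfa (-3.61). Angptl6 was the higher one (0.80).

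Several ligand and receptor pairs lay across the populations. Vegfa read 9.64, 9.62 and 9.74 in hepatocytes and 6.66, 5.80 and 5.72 in mesenchymal cells, while its receptor gene Kdr read 6.92, 6.81 and 7.57 against 12.79, 12.67 and 12.98. Hgf, the hepatocyte growth factor, was higher in mesenchymal cells by 1.94 and its receptor gene Met lower by 2.73. Csf1 and its receptor gene Csf1r were both higher, by 2.91 and 7.13. Of 49 tested receptor genes 30 were higher (61.2%) and 14 lower (28.6%), against 42.9% and 40.1% of all genes tested. The higher ones were led by Tek, Csf1r, Flt4 (6.19), the oncostatin M receptor Osmr (5.82) and Kit (5.73). The lower ones were led by the growth hormone receptor Ghr (-4.18), Klb (-3.81) and Fgfr4 (-3.53), which together sense the bile acid hormone FGF15, then Egfr (-3.35), the glucagon receptor Gcgr (-3.24) and Erbb3 (-2.87). Fgfr2, Fgfr3, Bmpr1a, Insr, Fzd8, Igf2r and Acvr2a were lower by 1.33 to 0.44, and the call for Igf2r was lost without hepatocyte array 1 (-0.40, limma adjusted p = 0.059). The shared cytokine chain Il6st was higher by 4.30, whereas Il6ra, the interleukin-6 receptor, read 9.56, 9.33 and 9.42 against 9.52, 9.95 and 9.67 and was not called, except without mesenchymal array 1 (0.37, limma adjusted p = 0.0234).

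Cell cycle genes were higher in 21 of 26 tested genes and lower in 1, Ccne1 (-0.98). Of the 21, 9 lay under the filter level on every hepatocyte array and so had to be higher. Mki67, a marker of cycling cells, read 5.09, 5.18 and 5.11 in hepatocytes and 9.35, 9.04 and 8.63 in mesenchymal cells (difference 3.88, SE 0.18, limma adjusted p = 8.5e-07), and the cyclin gene Ccnd2 differed by 5.11. Array 1, the mesenchymal array nearest to hepatocytes in hepatocyte markers, had the highest mesenchymal value in 83.3% of the measured list. Without array 1 the list's median over measured members was 1.70 in place of 1.77. Interferon response genes were higher in 16 of 20 and lower in none, led by Oasl2 (5.53), Ifit2 (5.09) and Gbp2 (4.31). Immediate early genes were higher in 11 of 16, led by Klf6 (4.58) and Ier3 (2.76), and Fosl2 was lower by 0.60.

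Housekeeping sets differed by less. Ribosomal protein genes were higher in 34 of 38 with a median of 0.60, which was 0.37 with median centring and by construction near 0, at 0.02, with ribosomal centring; Rpl27a was the lower one (-0.30). Proteasome genes were lower in 19 of 31 with a median of -0.32, and Psma7, the higher one at 0.24, turned to -0.34 with ribosomal centring and lost its call without hepatocyte array 1 (0.22, limma adjusted p = 0.0549) or mesenchymal array 2 (0.21, limma adjusted p = 0.0579). Of 14 tested clock genes 7 were lower (50%) and 4 higher (28.6%), against 40.1% and 42.9% of all genes tested. Nfil3 led the lower ones (-2.71). The higher ones were Clock (1.03), Arntl (0.99), Nr1d1 (0.55) and Nr1d2 (0.32). The last 2 turned to -0.03 and -0.26 with ribosomal centring, and the call for Nr1d2 was lost without mesenchymal array 3 (0.22, limma adjusted p = 0.0566). With all 12 arrays in the fit the calls for Arntl, Nr1d1 and Nr1d2 were all lost (limma adjusted p = 0.303, 0.175 and 0.675).

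In several isozyme families different members were higher in the 2 populations. The liver pyruvate kinase gene Pklr read 10.95, 10.49 and 9.78 in hepatocytes and 6.99, 6.69 and 6.67 in mesenchymal cells, a difference of -3.62 (SE 0.28, limma adjusted p = 1.1e-05). Pkm, the form of most other tissues, read 5.96, 5.89 and 5.82 against 10.15, 10.37 and 10.34, a difference of 4.39 (SE 0.09, limma adjusted p = 5.7e-08). Neither gene overlapped between the populations. The hexokinases Hk1 and Hk2 were higher by 3.65 and 3.38. Among phosphofructokinases Pfkp was higher by 3.13 and Pfkm and Pfkl were lower by 0.83 and 0.57; among aldolases Aldoa was higher by 1.17 and Aldoc lower by 2.43. The fructose bisphosphatase genes Fbp1 (-4.23) and Fbp2 (-0.71) were both lower. Lactate dehydrogenase split by 0.90 each way, Ldha lower and Ldhb higher. Eno3 was not called, except as lower with ribosomal protein centring (-0.51, limma adjusted p = 0.00317), and Eno2 did not reach the filter.

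Glycogen enzymes and glucose carriers did not all divide in this way. Pygl, the liver glycogen phosphorylase, was lower by 2.12 and the brain form Pygb higher by 2.44, while Pygm did not reach the filter. Glycogen synthase Gys2 was lower by 5.33 and the muscle form Gys1 by 0.49. The low-affinity glucose transporter Slc2a2 read 13.39, 13.08 and 12.90 in hepatocytes and 9.52, 7.07 and 7.75 in mesenchymal cells (difference -5.01, or -5.71 without array 1), and the high-affinity Slc2a3 5.77, 5.29 and 6.01 against 8.45, 8.58 and 8.51 (difference 2.82). Slc2a5 and Slc2a9 were lower by 2.45 and 1.79, and Slc2a1 and Slc2a8 were not called. Slc2a8 was called lower without hepatocyte array 2 (-0.25, limma adjusted p = 0.0261) and with either centring. Arg1, of the urea cycle, read 14.19, 14.07 and 14.15 against 10.70, 9.90 and 9.03 (difference -4.26), and the mitochondrial Arg2 4.97, 4.49 and 4.81 against 7.59, 8.38 and 7.33 (difference 3.02).

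Among fatty acid binding proteins, Fabp2 and Fabp1 were lower by 5.70 and 3.00, or by 6.31 and 3.69 without mesenchymal array 1, while Fabp7 read 4.24, 4.16 and 5.12 in hepatocytes and 12.34, 12.50 and 12.33 in mesenchymal cells (difference 7.89, SE 0.24, limma adjusted p = 1.9e-07) and Fabp4 5.34, 5.37 and 5.78 against 12.22, 12.16 and 12.22 (difference 6.70). Fabp5 was higher by 0.60 and Fabp3 did not reach the filter. The desaturase gene Scd1 was lower by 2.78 (3.45 without mesenchymal array 1) and Scd2 higher by 4.19. Lipoprotein lipase Lpl was higher by 5.92 and Lipg lower by 3.28. Acsl5, Acsl4 and Cpt1a were lower by 0.81, 0.34 and 0.99, and Acsl6 did not reach the filter. Of the galactose lectins Clec10a, the macrophage form, was higher by 2.09 where Asgr1 and Asgr2 were lower. Annexins Anxa3, Anxa2, Anxa1 and Anxa5 were higher by 5.53, 5.08, 3.49 and 1.98, and Anxa6, Anxa4 and Anxa7 lower by 0.91, 0.67 and 0.40. Of the filament genes Vim was higher by 5.63 where Krt8 and Krt18 were lower. Among connexins Gja1 read 3.84, 3.79 and 4.19 in hepatocytes and 10.98, 11.01 and 11.35 in mesenchymal cells, Gja4 was higher by 4.25, and Gja5 did not reach the filter.

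**Figure D4:**
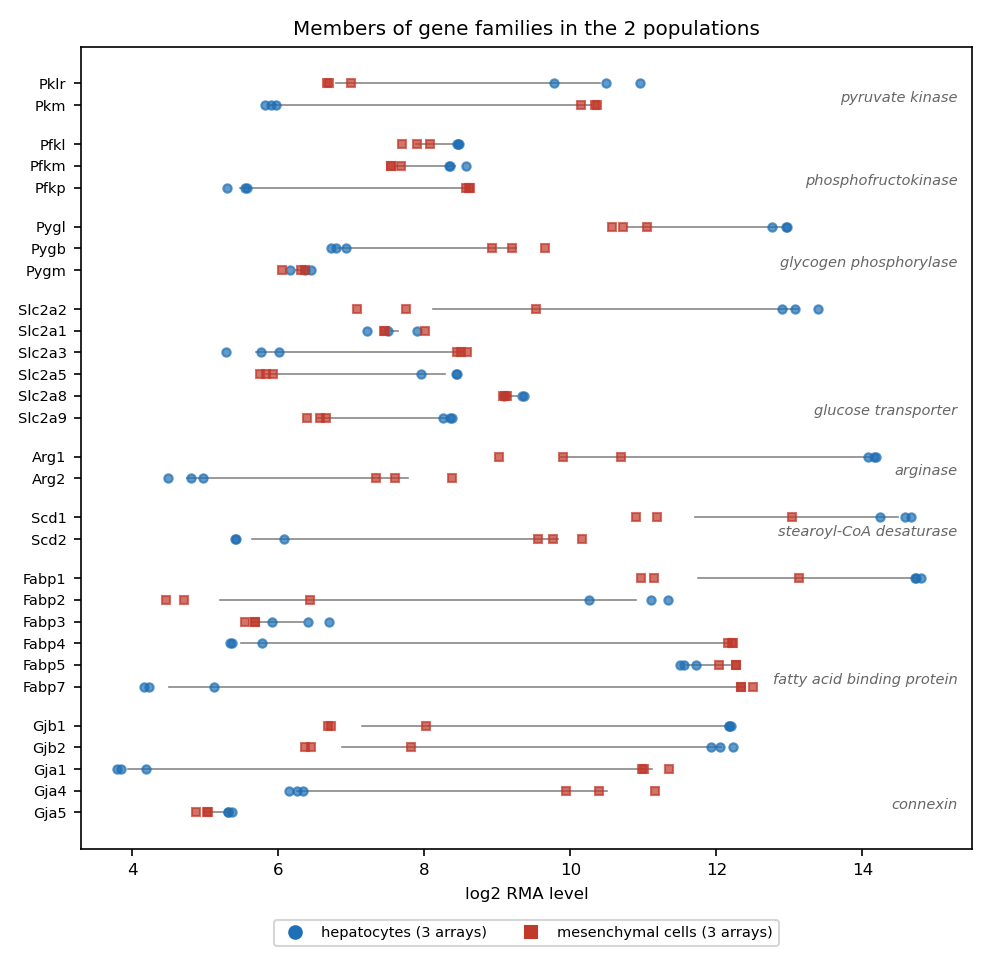
Log2 RMA level of the members of 8 gene families on the 3 hepatocyte arrays (blue circles) and the 3 mesenchymal arrays (red squares); the grey line joins the means. In pyruvate kinase, arginase, desaturase and connexin at least 1 member is lower and another higher in mesenchymal cells, as for Pklr (-3.62) and Pkm (4.39); levels of different genes are not comparable with each other because each probe set has its own response.

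Few of the strongest signals were common to both populations. A mean level of at least 13 was reached by 191 genes in hepatocytes and 138 in mesenchymal cells, and 37 reached it in both, which is 19.4% of the first set and 26.8% of the second. Of the 37, 33 differed by less than 2-fold and 13 were ribosomal protein genes. The others, picked out after their values were seen, included Apoe, Fth1, B2m and Alb. The cut at 13 and the highest value of the 6 arrays, 15.2, left little room for a wide difference. The count under 2-fold was therefore largely set by the choice. Of all genes tested 43.4% were called with at least a 2-fold difference.

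The population difference was largely the same without the drug. The vehicle arrays, which share no array with the treated ones, gave differences that correlated with those under phenobarbital at r = 0.992 across the 8757 genes, which are not independent replicates, and 94.6% of genes agreed within 0.5. Of the 7264 called genes 7233 had the same sign in vehicle mice, and of the 3803 called at least 2-fold, 3801. Whether the difference itself changed with treatment was tested as the interaction in limma over all 12 arrays: of 9031 genes none was called (0%), 492 had an unadjusted p under 0.05, which is 5.45%, and the smallest adjusted p was 0.108.

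That gene was Cyp2b10. Its mean was 7.84 in hepatocytes and 7.26 in mesenchymal cells of vehicle mice, and 13.36 and 8.26 under phenobarbital, so the difference went from -0.59 to -5.10. The change of -4.51 (SE 0.60) had a limma adjusted p of 0.108. It passed with mesenchymal array 1 of the treated mice left out, at -5.08 and a limma adjusted p of 0.00117. Cyp2c55 went from -2.81 to -5.34, a change of -2.54 (SE 0.67, limma adjusted p = 0.870). Cyp2c29 moved the other way, from -5.02 to -3.77, with a mean of 7.19 in mesenchymal cells of vehicle mice and 9.94 in those of treated mice (change 1.25, SE 0.78, limma adjusted p = 0.929). That treated mean rested on array 1, which read 11.58 against 9.51 and 8.72 on the others, and without it the change was 0.43 (limma adjusted p = 0.936). Cyp3a11, Nr1i3, Nr1i2 and Alb changed by 0.28, 0.33, 0.27 and 0.17.

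The next genes by p were the cyclin gene Ccnd1, whose difference was 2.33 in vehicle and 3.22 in treated mice (change 0.89, SE 0.15, limma adjusted p = 0.571), the spermine oxidase gene Smox (change 1.12), Mvd of cholesterol synthesis (from -1.75 to -0.70, change 1.06) and the actin regulator Coro1c (change 0.60). In Ccnd1, Smox and Mvd the hepatocyte mean was the one that differed more between vehicle and treated mice: 8.55 and 7.96, 6.92 and 6.10, and 8.59 and 7.57. Hhex, the factor not called above, had a difference of -1.48 in vehicle mice and of 0.00 under phenobarbital; it was singled out after its values were seen (change 1.48, limma adjusted p = 0.743). Moxd1 was called when hepatocyte array 3 of the treated mice was left out (change 3.98, limma adjusted p = 0.00159). It had read 5.93 and 5.69 on the other treated hepatocyte arrays and 9.26 on array 3, and it did not reach the filter of the treated comparison.

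**Figure D5:**
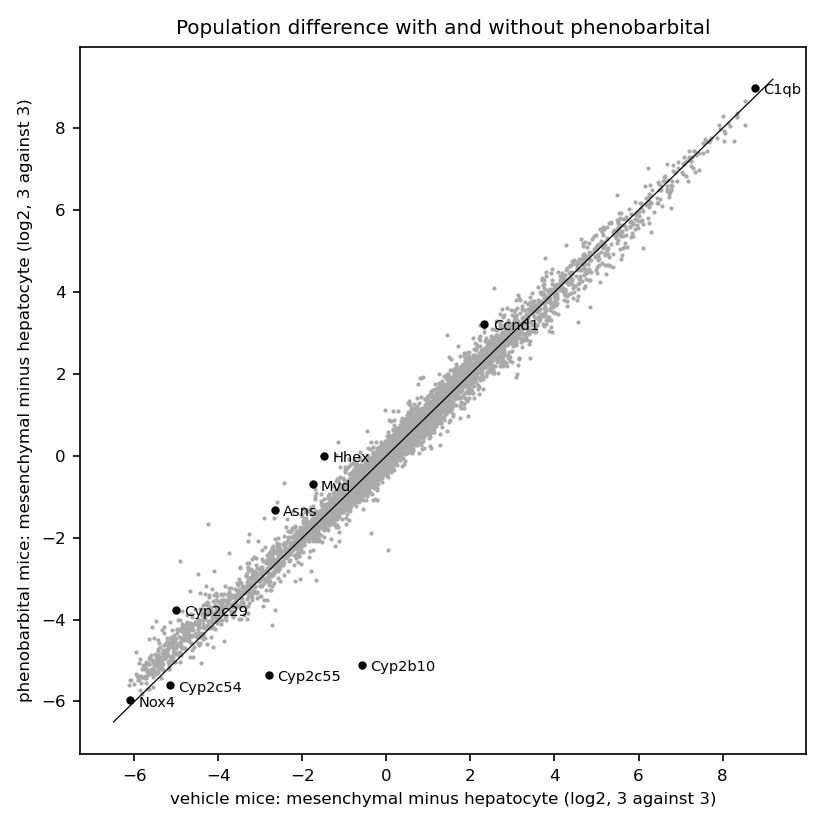
Difference between mesenchymal cells and hepatocytes (log2) of each of 8757 genes in vehicle mice (horizontal axis, 3 against 3 arrays) and in phenobarbital mice (vertical axis, 3 against 3 arrays), with the diagonal of equal differences. The genes follow the diagonal at r = 0.992, and Cyp2b10 lies farthest below it, at -0.59 in vehicle and -5.10 in treated mice.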

How the data were processed

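Arrays of 12 samples were analysed, 3 each of hepatocytes and mesenchymal cells from phenobarbital and vehicle mice. The values are log2 levels deposited by the authors, summarised with RMA per the submitters' processing notes, version not given. RMA scales arrays to each other, so a shift shared by all genes may not show. Per the labels, 250 ng of total RNA was labelled with an Affymetrix 3′ IVT kit. Of 22626 probe sets, 20380 had 1 gene symbol, 691 several and 1555 none. Each of 12393 genes was read from its probe set with the highest mean over all arrays. Genes above an array's 40th percentile on at least 3 arrays were tested with limma 3.58.1 in R 4.3.3 (lmFit, eBayes with trend, Benjamini-Hochberg adjustment over all genes tested), on the 6 phenobarbital arrays for the population difference and on all 12 for the interaction. A call is an adjusted p under 0.05. No detection calls were used here, so low values may be background. Tested on simulated data for the population difference, the fit recovered 82 of 100 genes changed by log2 1 and 95 of 100 changed by log2 2. It called 6 of 8203 unchanged genes. For the interaction it recovered 73 and 94 of 100 and called 10 of 8408 unchanged genes. The simulation had independent noise, few changed genes and no shift of scale between arrays. Its error counts therefore need not hold for the real arrays, where 83% of genes were called.

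Members and gene lists were chosen with earlier results of these data known; lists are described by counts and medians, without list tests. Named are the 10 widest genes each way, up to 6 called genes of each list in each direction, called genes against a list's direction, some genes not called, all measured family members, the phenobarbital genes, and the 5 smallest interaction p-values. Beyond this rule, chosen after their values were seen, are Acta2, Actb, Ahnak, Angptl4, Apoa1, B2m, C9, Col1a1, Cox4i1, Csf1, Ctsb, Cyp2c70, Cyp4b1, Cyp4f16, Cyp4f18, Cyp7a1, Dll4, Egfl7, Fcgr4, Glud1, H2-D1, Hgf, Il6st, Lifr, Lrat, Marco, Moxd1, Pdgfrb, Sox4, Stab1, Stab2 and Vegfa. Alternatives were other filters, the mean of probe sets, centring on array medians or ribosomal proteins, no trend, a replicate block, all arrays in the fit, limma's treat and leaving out each array.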

Additional observations from a re-analysis of the deposited data

How the results depend on the processing

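The number of genes called stayed between 5649 and 9811 and the number called at least 2-fold between 3000 and 4472 over all alternatives with all 6 arrays, limma's treat giving 3000. Leaving out any array gave 6219 to 6471 and 3113 to 3446, with fewer genes tested by construction. Of the 7264 calls, 760 had the opposite sign with ribosomal protein centring, 40 with array median centring and 74 with the mean of probe sets, and none with the other settings. No interaction was called in any setting with all arrays, and the leave-one-out counts ran from 0 to 1.

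Array numbers were not taken to pair the populations: the deviations of same-numbered arrays correlated at 0.0728, -0.0644 and 0.0141 under phenobarbital and at 0.23, 0.22 and 0.18 under vehicle, and under phenobarbital not every array correlated best with its own number. A fit with the number as a block called 7099 genes, 7063 of them shared, 3803 at least 2-fold and 0 interactions; among genes named here the block changed the call of Abcc3 alone (0.40, limma adjusted p = 0.0454).

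With the mean of probe sets the sign turned for Des at -0.26, Fth1 at -0.0585 and Runx1 at 0.33. With array median centring the sign turned for Apoe at -0.16, Eno3 at -0.16, Fth1 at -0.22, Hhex at -0.23 and Slc2a1 at -0.13. With ribosomal protein centring the sign turned for Abcc3 at -0.18, Apoe at -0.51, B2m at -0.28, Des at -0.34, Eno3 at -0.51, Fth1 at -0.57, Gstm2 at -0.31, Hhex at -0.58, Il6ra at -0.30, Nr1d1 at -0.0302, Nr1d2 at -0.26, Psma7 at -0.34 and Slc2a1 at -0.48. Leaving out 1 array turned the sign of 5 named genes that were not called with all 6: the differences ran from -0.0315 to 0.0432 for Fth1, -0.0295 to 0.75 for Gstm2, -0.11 to 0.20 for Hhex, -0.12 to 0.0518 for Rxra and -0.0816 to 0.28 for Slc2a1. With ribosomal protein centring the calls for Abca1, Angptl6, Fabp5, Ldhb, S100a8 and Slco2a1 were lost. The mean of probe sets ended those of Lifr, Nr1d2 and Psma7, and array median centring those of B2m, Nr1d2 and Psma7. Of the genes whose sign turned with ribosomal protein centring, Apoe, B2m, Des, Eno3, Fth1, Hhex and Psma7 were called lower there. Fth1 was also called lower with array median centring, and Slc2a8 with either centring. Centring subtracts 1 constant per array, so differences near 0 change sign together. RMA levels carry no read depth, and the number of arrays and the background at low signal limit what can be seen.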
